A study of Mus musculus with 6 samples.

Results

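A set of 213 long non-coding RNAs (lncRNAs) was lower in mouse spermatogonial stem cells (SSCs) deprived of GDNF than in cells with GDNF, both before the withdrawal and after its return. The members were chosen by their measured levels in all 6 libraries, so the drop and the return are given as descriptions. The lowest value among the normal cultures and the refreshed cultures had to be at least 1.5 times the highest value among the deprived cultures. Levels were in CPM, the reads counted on a transcript per 1000000 reads counted on all lncRNAs of that library. Transcripts also needed a length under 10000 bp and at least 50 counts in at least 2 libraries. The 30 most abundant transcripts, n271995, TCONS_00040388 and the run from TCONS_00074926 to TCONS_00074946 were left out. In all, 12797 of the 73710 transcripts listed in any library could pass, and 213 did (1.66%). The mirrored rule, with the deprived cultures high, was met by 98 transcripts (0.766%). Both counts depend on the scaling by library totals. With CPM scaled by edgeR's TMM factors 184 transcripts met the rule, and the mirrored count on that scale is not given here.

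Glial cell line-derived neurotrophic factor (GDNF) is a protein of the stem cell niche, secreted by Sertoli cells in the testis. It binds the co-receptor GFRA1 on SSCs, signals through the receptor tyrosine kinase RET and sustains their self-renewal and survival. lncRNAs do not code for proteins, and some act on chromatin or on neighbouring genes. For the individual transcripts below no function is given in the files, which name known lncRNAs only by NONCODE number (n followed by digits) and predicted lncRNAs only by Cufflinks transcript number (TCONS). The 213 identifiers were looked up as written among gene symbols and synonyms (0 matches). Such a lookup of numbers cannot tell whether a member lies at a named gene. Sequences, coordinates and strand of the members were not analysed here.

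SSC lines were grown from Thy1-enriched testis germ cells of 6- to 8-day-old C57BL/6 mice on STO feeder cells, in serum-free medium with 20 ng/ml GDNF, 150 ng/ml GFRA1 and 1 ng/ml FGF2, and were used at passages 10 to 20. Normal cultures (N) kept GDNF throughout, 0h cultures had been without it for 18 h, and 8h cultures had been without it for 18 h and then with it again for 8 h. Each condition had 2 libraries, numbered 1 and 2, and the study used 2 independently established lines. Cells of several pups were pooled for a culture, and RNA came from germ cell clumps loosened from the feeder layer by pipetting. Such cultures hold a mixture of germ cells of which only some are stem cells. Markers of spermatogonia or of feeder cells could not be checked, since the files hold lncRNAs by number only. Less of a transcript per cell and fewer cells that carry it cannot be told apart in these bulk libraries.

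In units of 1000000, reads counted on lncRNAs totalled 7.69 to 8.50 per library. The 213 members took 0.756% and 0.776% of the counts in N, 0.301% and 0.288% in 0h and then 0.770% and 0.847% in 8h. The median member had 11.9 and 12.0 CPM in the N libraries, 4.55 and 4.47 CPM in 0h, and 13.3 and 15.2 CPM in 8h. Both 0h libraries were below all others in these summaries, which follows from the way the set was chosen. A count of 0 in a library allows up to 3 counts, which is 0.353 to 0.390 CPM, and such limits cover counting error only.

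**Figure D1:**
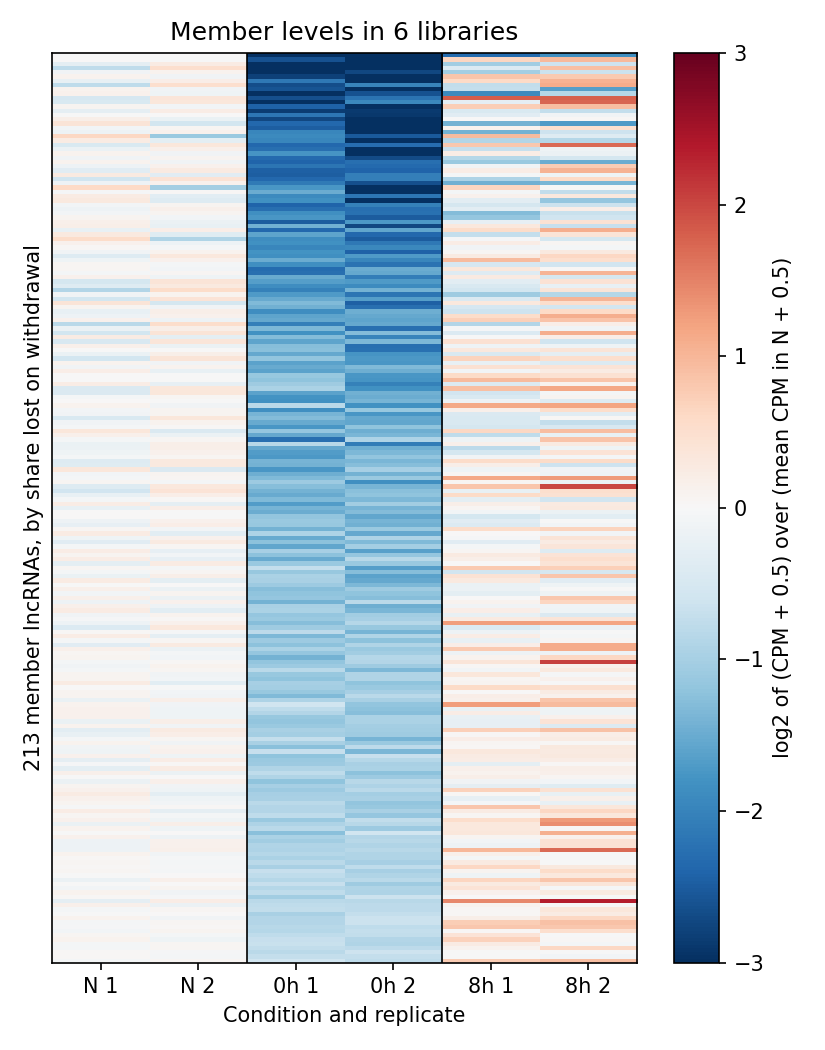
Levels of the 213 members (rows, ordered by the share lost on withdrawal) in the 6 libraries (columns, condition and replicate number), as log2 of CPM plus 0.5 over the mean in N plus 0.5, with colours saturated at 3 in either direction. The 0h columns are blue in every row by the rule, and the 8h columns hold both red and blue rows, from members above to members below their level in N.

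The depth of the loss differed widely between members. Mean CPM in 0h was 62.1% below that in N for the median member, with quartiles of 51.8% and 74.9% and a range from 40.2% to 97.4%. A loss of more than 50% was seen for 177 members, of more than 75% for 53 and of more than 90% for 4. In edgeR's fit the median log2 fold change was -1.38 for 0h against N (from -5.18 to -0.72) and 1.46 for 8h against 0h (from 0.60 to 5.72). Over the 12584 transcripts that could have passed and did not, the medians were 0.01 and -0.07. By edgeR's quasi-likelihood test, at an FDR threshold of 0.05 after Benjamini-Hochberg adjustment, 73 members were lower in 0h than in N (34.3%), against 0.315% of all 39310 transcripts tested and 0.821% of the 12797 that could pass the rule. Of the members, 99 were higher in 8h than in 0h (46.5%), against 0.521% and 1.31%. The rule chose the members on these contrasts, so shares far above the background were fixed in advance. The counts are a description of the chosen set, and neither they nor the gap to the background is evidence of a response. In 0h, 121 members had fewer than 50 counts in both libraries and so entered through the cultures in which they were high.

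The set included members of high abundance. By RPKM, which scales reads to transcript length and so allows levels of different transcripts to be compared, n295145 (811 bp) was the highest, with a mean of 419 RPKM over the N and 8h libraries. Its RPKM was 426 and 458 in N, 128 and 157 in the 0h cultures and 322 and 472 in 8h. The lowest 8h library stood well above both 0h libraries, and the 8h replicates differed from each other more than the N replicates did. n297517 (1318 bp) had 209 and 231 RPKM in N, 39.4 and 20.8 in 0h and then 237 and 310.4 in 8h. It combined a high level with one of the deepest losses among the abundant members, 86.3% of its mean CPM in N, and its log2 fold changes were -2.85 (standard error 0.27) for 0h against N and 3.09 (standard error 0.28) for 8h against 0h.

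The predicted lncRNA TCONS_00021677 (3869 bp) had a similar depth of loss at a lower level. Its RPKM was 68.8 and 53.8 in N, 9.12 and 7.18 in the 0h cultures and 61.9 and 63.0 in 8h. Both 8h libraries lay between the N libraries, and the loss was 86.7%. For n295187 (647 bp), RPKM was 236 and 231 in N, 83.2 and 94.4 in 0h and then 219.8 and 208 in 8h, so the replicates of each condition lay close together. For n289587 (1126 bp) it was 181 and 155 in N, 77.7 and 82.5 in the 0h cultures and 140.4 and 126 in 8h. Here both 8h libraries remained below both N libraries. The other 7 of the 12 members with the highest level per length, n295355, n294326, TCONS_00147733, n295750, n269408, TCONS_00136287 and n295098, lost between 41.6% and 65.2% of their mean CPM.

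**Figure D2:**
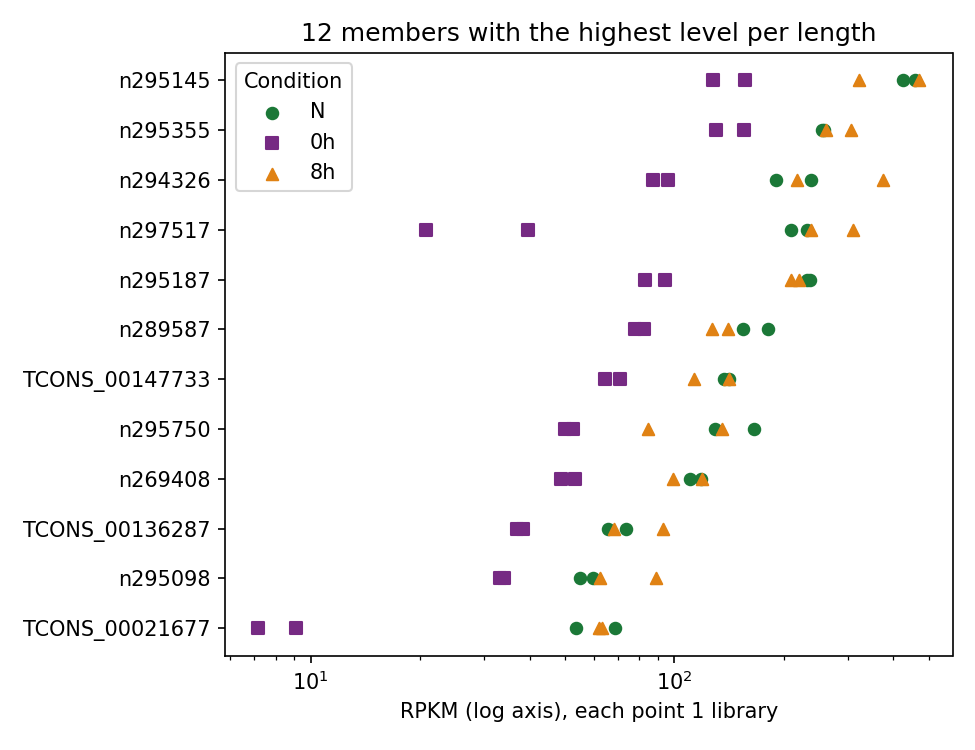
RPKM (log axis) of the 12 members with the highest mean RPKM over the N and 8h libraries, with 1 point per library and a symbol and colour for each condition. The squares of 0h lie to the left of the other points in every row, furthest for n297517 and TCONS_00021677, which had 86.3% and 86.7% less in 0h than in N.

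By summed counts the leading members were the long predicted transcript TCONS_00136287 (9322 bp), n295355, n295145, TCONS_00085329 (8120 bp) and n297517. TCONS_00136287 had 613 and 685 CPM in N, 357 and 344 CPM in 0h and then 865 and 634 CPM in 8h. The highest 8h value came from replicate 1, while replicate 2 of 8h lay between the N libraries. TCONS_00085329 had 329.9 and 288 CPM in N, 157 and 142 CPM in the 0h cultures and 322 and 317 CPM in 8h. Its 8h libraries also lay within the range of N.

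The members with the widest separation between the conditions ranged from low to high abundance. TCONS_00051642 (3494 bp) had 32 and 33 counts in N, 2 and 0 in 0h and then 51 and 68 in 8h, and its lowest N or 8h CPM was 16.3 times its highest 0h CPM. Its log2 fold changes, -4.89 (standard error 0.75) and 5.72 (standard error 0.72), rest on those 2 counts in 0h. They became -8.06 and 8.89 without replicate 1 of 0h, and -3.93 and 4.76 without replicate 2 of 0h. n290124 (1242 bp) had 270 and 245 counts in N, 34 and 22 in the 0h cultures and 443 and 443 in 8h, a separation of 7.13 times. Both of its 8h libraries were above both N libraries. For TCONS_00025767 (2370 bp) the counts were 68 and 106 in N, 6 and 4 in 0h and then 38 and 55 in 8h. Its 8h libraries stood between the other conditions without overlap, at a separation of 6.71 times from 0h. n288959 (3126 bp) had 576 and 1461 counts in N, 101 and 65 in the 0h cultures and 723 and 1892 in 8h, and the replicates differed within N and within 8h in the same direction. The remaining members with separations from 4.72 to 5.90 times were TCONS_00021677, n297517, TCONS_00126141, n284454, n289813 and n269425. In all, the separation was at least 2 times for 71 members, at least 3 times for 30 and at least 5 times for 9.

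Just inside the limit of 1.5 times were TCONS_00057740, n290541 and n267032, each with a separation of 1.50 after rounding. Their CPM in the lowest N or 8h library was 13.3, 11.6 and 24.9, and in the highest 0h library 8.85, 7.74 and 16.6. Just outside were TCONS_00098249 (25.8 CPM against 17.2 CPM), n264335 (7.92 CPM against 5.28 CPM) and TCONS_00018655 (26.3 CPM against 17.6 CPM). The members nearest the limit thus hardly differed from the transcripts left out.

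How far the members returned within 8 h was asked by comparing 8h with N, a contrast the rule treats evenly although it holds both conditions above 0h. The share of the lost CPM that was regained, 8h minus 0h over N minus 0h, had a median of 116% over members, with quartiles of 86.4% and 157%. It was 106.7% when CPM was scaled by edgeR's TMM factors. Replicate 1 gave a median of 104% and replicate 2 a median of 127%. Regain was below 50% for 13 members, from 50% to 100% for 69, from 100% to 200% for 101, and 200% or more for 30. Transcripts that stayed near their 0h level in 8h could not be members, so the rule limited the count of low regain. In 60 members both 8h libraries were above both N libraries (28.2%, against 25.4% of the 12797 transcripts that could pass), and in 38 both were below (17.8%, against 22.0%). These shares were near the background, and the lean towards 8h depended on the scaling: with TMM-scaled CPM 50 members were above and 48 below, and with DESeq2 size factors 50 and 46. The background on those scales is not given here, so these counts show no lean relative to other transcripts.

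**Figure D3:**
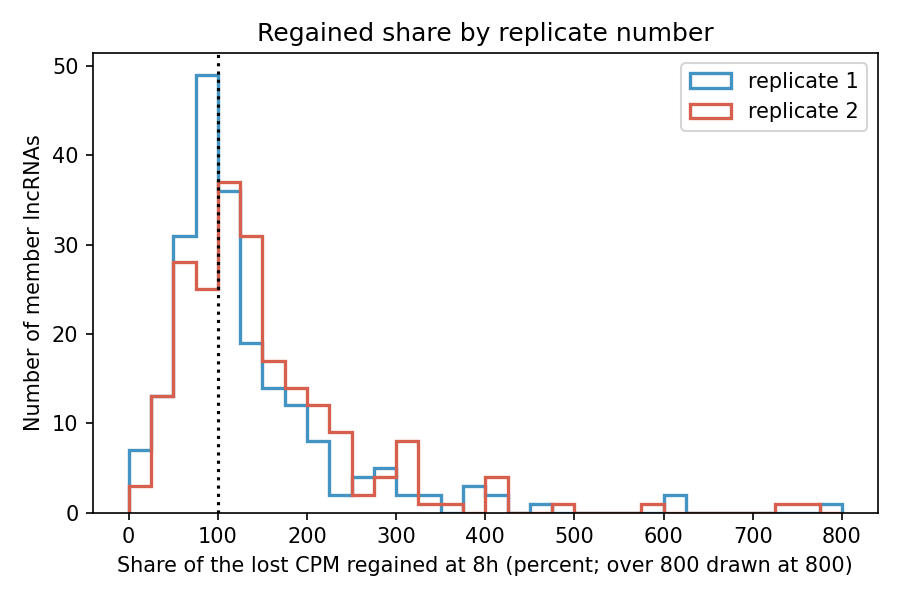
Number of members (vertical axis) by the share of the lost CPM that was regained at 8h (horizontal axis, percent, bins of 25), drawn for replicate 1 and replicate 2, with a dotted line at 100%. Replicate 1 peaks just below full return and replicate 2 just above it, with medians of 104% and 127%.

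How many single members differed between 8h and N depended on whether the fit paired libraries by replicate number, with 1 member called without that replicate block and 19 with it. In edgeR's quasi-likelihood test on all 6 libraries, with Benjamini-Hochberg adjustment and an FDR threshold of 0.05, 1 of the 213 members was called (0.469%), against 0.234% of all 39310 transcripts tested and 0.688% of those that could pass the rule. That member was higher in 8h, against 0.0636% higher of all tested and 0.188% of those that could pass. Over all transcripts 25 were higher in 8h and 67 lower, and with total counts in place of TMM these numbers were 40 and 55. No member was called lower in 8h (0 members, against 0.17% of all tested and 0.5% of those that could pass). By the same test's p before adjustment, at a threshold of 0.05, 22 members were lower and 25 higher, together 22.1% of members against 12.3% of all tested and 18.4% of those that could pass. DESeq2's Wald test called 4 members lower and 4 higher, together 3.76% against 0.911% and 2.60%. The median log2 fold change of 8h against N was 0.06 over members and -0.05 over the other transcripts that could pass. Its standard error had a median of 0.32 over members, and the change was below 0.5 in size for 148 members.

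The member called without the block was TCONS_00057740 (1787 bp), one of those just inside the limit. It had 13.3 and 18.7 CPM in N, 8.85 and 8.83 CPM in 0h and then 44.2 and 84.6 CPM in 8h. Both 8h libraries were far above N, and the regained share was 775%. Its log2 fold change of 8h against N was 1.94 (standard error 0.31, FDR 0.028 in edgeR's quasi-likelihood test). The FDR was 0.24 without replicate 1 of N, 0.229 without replicate 2 of N and 0.156 without replicate 2 of 8h, and it lay between 1.07e-06 and 0.0404 over the settings that left out no single library.

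TCONS_00139672 (2837 bp) had 3.83 and 7.42 CPM in N, 0.492 and 0.824 CPM in the 0h cultures and 20.9 and 20.9 CPM in 8h. This transcript was nearly undetected in 0h, and its 8h libraries were alike and above both N libraries, yet the FDR of the change (log2 fold change 1.81, standard error 0.36) was 0.061 in edgeR's quasi-likelihood test without the block and 0.0015 with it. n267295 (3388 bp) had 8.81 and 14.6 CPM in N, 4.55 and 4.12 CPM in 0h and then 21.3 and 48.2 CPM in 8h, and was likewise called only with the block (log2 fold change 1.51, FDR 0.124 without and 0.0032 with it by edgeR).

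At the other end, TCONS_00088094 (1942 bp) had 56 and 59 counts in N, 3 and 0 in the 0h cultures and 8 and 13 in 8h. It regained 16.4% of the lost CPM, the smallest share among the members. TCONS_00094953 (2015 bp) had 21.8 and 11.2 CPM in N, 2.83 and 1.65 CPM in 0h and then 5.85 and 4.75 CPM in 8h. TCONS_00047598 (2247 bp) had 15.5 and 19.0 CPM in N, 3.56 and 2.35 CPM in the 0h cultures and 5.99 and 6.37 CPM in 8h. Both 8h libraries of these 3 transcripts were below both N libraries. Their changes of -2.48 (standard error 0.59), -1.72 (standard error 0.39) and -1.55 (standard error 0.33) had FDRs of 0.106, 0.095 and 0.075 in edgeR's quasi-likelihood test without the block. With the block the FDRs were 0.015, 0.0041 and 0.0053, so the calls were made there only.

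Libraries with the same replicate number deviated together. Across the 213 members, which are not independent, the difference between replicates 2 and 1 in log2 CPM had a Pearson r of 0.289 for N with 0h, 0.4998 for N with 8h and 0.361 for 0h with 8h. Over the other transcripts that could pass the rule the values were 0.419, 0.425 and 0.490, so such co-deviation was not particular to the members. When the replicate number entered the fit as a replicate block, 19 members were called between 8h and N in edgeR's quasi-likelihood test (8.92%), against 3.44% of all transcripts tested and 8.52% of those that could pass the rule. The members' share was thus near that of the transcripts that could pass. Of these 19, 11 were higher in 8h (5.16%, against 1.4% of all tested and 3.44% of those that could pass) and 8 lower (3.76%, against 2.04% and 5.08%). All 8 members that DESeq2 called were among the 19.

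The 11 members higher in 8h with the block were TCONS_00057740, TCONS_00139672, n267295, TCONS_00041055, TCONS_00126239, TCONS_00135574, TCONS_00118755, TCONS_00052699, n284454, n290124 and n276997, with log2 fold changes from 0.74 to 1.90. The most evenly measured was n276997 (2482 bp), with 34.2 and 35.6 CPM in N, 19.5 and 20.2 CPM in 0h and then 61.2 and 61.8 CPM in 8h. Its replicates differed little in any condition, and its change of 0.74 (standard error 0.16) had an FDR of 0.013 with the block and 0.149 without it in edgeR's quasi-likelihood test. The 8 members lower in 8h were TCONS_00088094, TCONS_00094953, TCONS_00047598, n294044, TCONS_00106004, n279933, n275515 and n268358, with log2 fold changes from -2.48 to -0.67. Of these, n279933 (3685 bp) had 127 and 109 CPM in N, 19.3 and 7.41 CPM in the 0h cultures and 72.2 and 37.5 CPM in 8h, a regained share of 39.6%. n275515 (1755 bp) had 114 and 131 CPM in N, 37.5 and 26.5 CPM in 0h and then 58.3 and 66.9 CPM in 8h, a regained share of 33.8%. In both transcripts the 8h libraries stood between 0h and N without overlap.

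**Figure D4:**
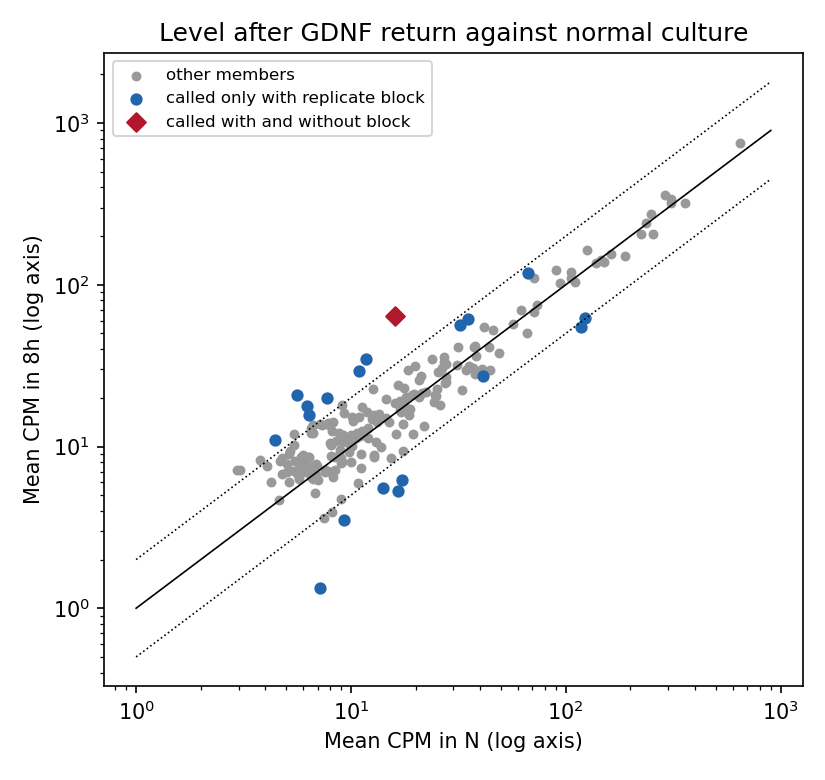
Mean CPM in 8h against mean CPM in N for each member (both axes logarithmic), with a solid line of equality and dotted lines at a 2-fold difference. The red diamond, TCONS_00057740, was called in edgeR's test with and without the replicate block, the 18 blue points only with it, and the grey points in neither.

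The members also varied between the replicate numbers in ways that condition did not account for. With condition in the fit, 12 members passed edgeR's quasi-likelihood test for a difference between replicates 2 and 1 (5.63%), against 2.48% of all transcripts tested and 6.24% of those that could pass the rule, so the members' share was near the latter. The direction was even, with 6 members higher in replicate 2 (2.82%, against 1.34% of all tested and 3.71% of those that could pass) and 6 lower (2.82%, against 1.14% and 2.52%). The median size of this log2 difference was 0.21 in members and 0.21 in the other transcripts that could pass. The number of members called fell when either N library was left out.

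Largest in size was the difference of n283455 (3653 bp), with 2.30 CPM in N, 0.246 CPM in 0h and 2.34 CPM in 8h of replicate 1, and 6.20, 0.706 and 9.74 CPM in the same conditions of replicate 2. The log2 difference was 1.74 (standard error 0.40, FDR 0.02 in edgeR's quasi-likelihood test). TCONS_00070678 (2727 bp) had 3.83, 0.246 and 4.42 CPM in N, 0h and 8h of replicate 1 and 7.05, 1.06 and 19.4 CPM in replicate 2. It too was higher in replicate 2 in every condition, as was TCONS_00128675 (1132 bp). For n283455 and TCONS_00070678, the 0.246 CPM in 0h of replicate 1 was below the 0.369 CPM that 3 counts make there. The order of the replicates in 0h thus rests on few reads. In the opposite direction, TCONS_00015565 (2102 bp) had 8.05, 0.983 and 10.1 CPM in N, 0h and 8h of replicate 1 and 2.07, 0.471 and 3.75 CPM in replicate 2. Its 0h values rest on 8 and 4 counts. TCONS_00016976 (4794 bp) had 26.9, 4.92 and 28.1 CPM in replicate 1 and 8.51, 1.41 and 17.7 CPM in replicate 2. Together with n295749 (1555 bp) these were lower in replicate 2 in every condition. The drop in 0h within both replicates follows from the rule for every member. Among the remaining called members, n288959 was higher in replicate 2 in N and 8h but lower in 0h.

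**Figure D5:**
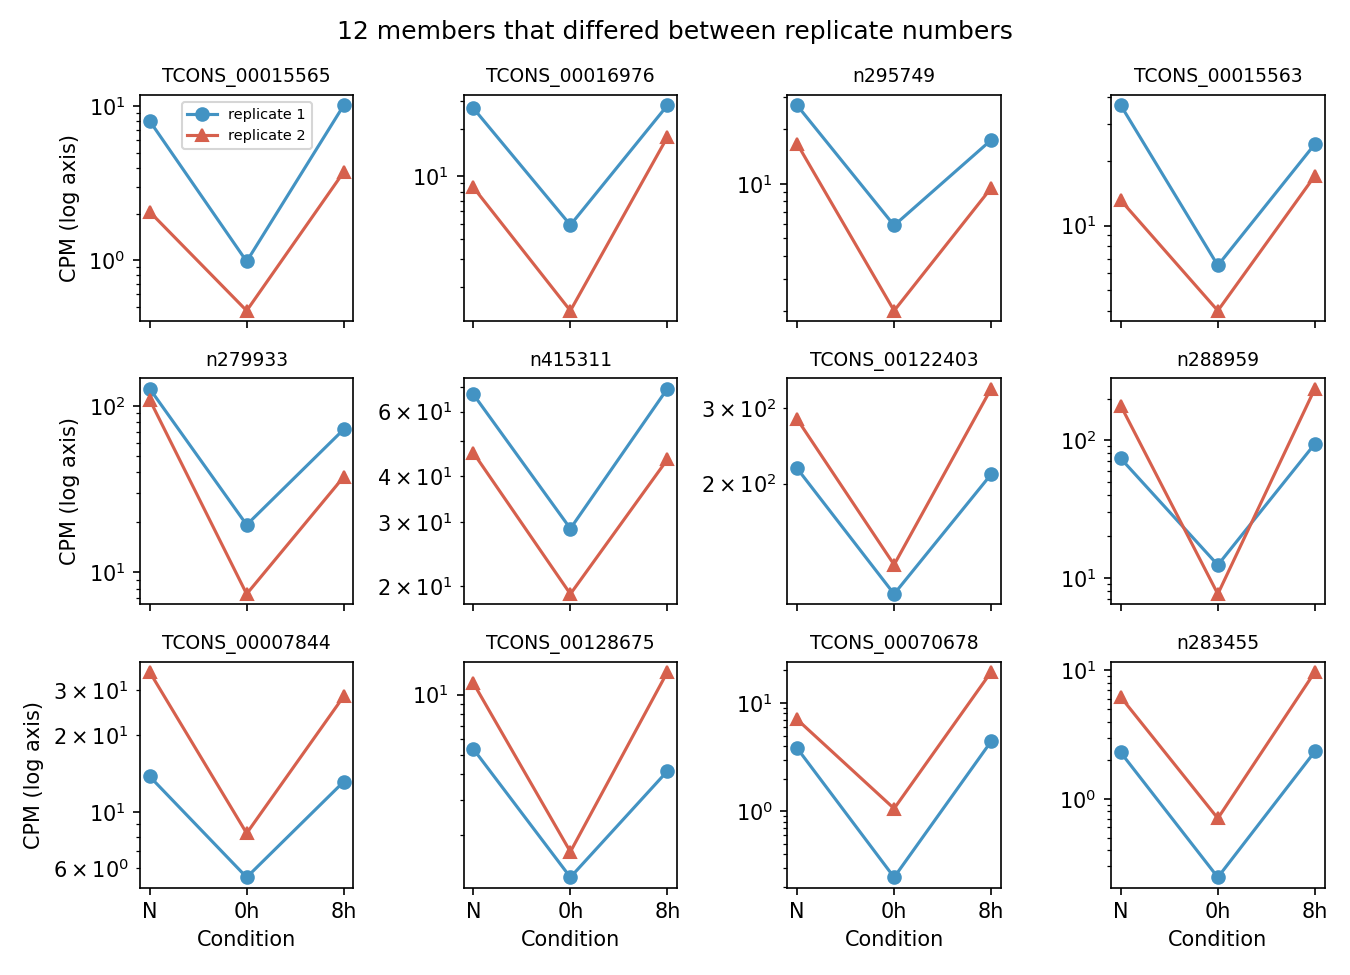
CPM (log axis, scaled for each panel) of the 12 members that differed between replicate numbers, in N, 0h and 8h, with a line for each replicate number. In 11 panels the lines keep their order across conditions, and in the panel of n288959 they cross at 0h. By the rule, both lines have their lowest point at 0h in all panels.

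Known lncRNAs made up 100 of the 213 members (46.9%) and predicted lncRNAs 113, against 60.1% known among the 12584 transcripts that could pass and did not. The median loss was 58.4% in known and 65.6% in predicted members, and the median regained share was 113% and 122%. The classes also differed in level, with medians of 15.7 CPM in N for known and 9.83 CPM for predicted members. Whether level accounts for the difference in loss, a value the rule acted on, was not tested. Median length was 2367 bp in members and 2110 bp in the others, and 30.5% of members were at least 3000 bp long against 26.5% of the others. Members were less abundant, with a median of 6.62 RPKM over the N and 8h libraries against 8.90 RPKM, and 32.9% of members exceeded 10 RPKM against 46.6%. Of the 98 transcripts of the mirrored rule, 54.1% were known, the median length was 2268.5 bp and 26.5% were at least 3000 bp long. Median counts summed over the 6 libraries were 469 in members, 501 in the mirrored set and 778 in the others. Lower counts, a lower known share and a greater median length were thus not particular to the members. These shares are descriptions. The minimum of 50 counts applied to members and others alike, and why their levels differed was not tested.

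The share of a transcript's length covered by reads moved with its counts. Median coverage over members was 74.97% and 80.1% in the N libraries. It was 50.8% and 52.0% in the 0h libraries and 79.2% and 81.1% in the 8h libraries. Coverage in N had a median of 76.9% in members and 77.9% in the others. n295098, n289587 and n295355 were covered over 99.7%, 99.6% and 99.3% of their length in N, which shows reads along the whole of these transcripts. By contrast, n285213 (1887 bp), n284711 (3364 bp) and n278741 (1657 bp) were covered over only 8.13%, 10.9% and 17.6% in N. n284711 had 147 and 169 counts in N, 100 and 88 in the 0h cultures and 179 and 150 in 8h, all within at most 10.9% of its length on average. For such members the counts describe a short stretch and not the whole transcript, and 5 members had a mean coverage below 25% in N.

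Some predicted members carried neighbouring numbers, which Cufflinks gives to transcripts assembled near each other, isoforms of a single locus included, so their reads may overlap. Numbers within 5 of each other joined 16 of the 113 predicted members into 7 runs. TCONS_00025766, TCONS_00025767 and TCONS_00025772 shared a profile, with losses of 89.9%, 94.4% and 84.5% and regained shares of 50.2%, 52.1% and 54.1%. TCONS_00015559, TCONS_00015563 and TCONS_00015565 lost 79.1%, 78.8% and 85.6%, regained 90.5%, 78.3% and 144%, and were all lower in replicate 2. Of the 5 pairs, TCONS_00099535 and TCONS_00099536 were alike, with losses of 76.4% and 72.6% and regained shares of 58.6% and 57.4%. The other pairs differed more in the regained share. TCONS_00139672 regained 408% and TCONS_00139673 199%, while TCONS_00075461 regained 304% and TCONS_00075463 36.0%, TCONS_00052699 regained 357% and TCONS_00052701 132%, and TCONS_00077745 regained 177% and TCONS_00077747 122%. No 2 members had equal counts in all 6 libraries (0 members), so none is a copy of another row.

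The transcripts numbered near the predicted members moved with them to some extent. Of 200 such neighbours that were not members and had at least 10 counts in at least 2 libraries, 60 had both 0h libraries below all N and 8h libraries (30%), against 11.0% of the 24082 predicted transcripts with that many counts. Of the 113 predicted members, 97 had a neighbour with that many counts, and 41 had at least 1 with this order of libraries. How often predicted transcripts at large have such a neighbour is not given here, so the 41 are a description only. Whether reads shared between overlapping transcripts account for the 30% was not tested.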

How the data were processed

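The authors depleted total RNA of rRNA, primed it with random hexamers and sequenced it. They deposited, for each of 6 libraries (3 conditions, 2 each), raw counts of uniquely mapped reads per lncRNA, and RPKM, which equals the count per kilobase and per 1000000 counted reads. Coverage, as deposited, is a percentage of transcript length, just above 100 in 2 files. Aligner, counter and genome build are not given in the sources used here. A transcript not listed in a file was given a count of 0.

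Members followed the rule stated with the results, and 53 transcripts were excluded by name or abundance. Members, lists and tests were chosen with earlier results of these data known. The test was edgeR's quasi-likelihood test (version 4.0.16, TMM factors, R 4.3.3) on the deposited counts in 1 fit of 3 conditions, on 39310 transcripts with at least 10 counts in at least 2 libraries, with Benjamini-Hochberg adjustment over all of them and an FDR threshold of 0.05. The standard error was the log2 fold change over the square root of the F statistic. The replicate difference was fitted with condition as covariate. Alternatives were DESeq2 1.42.0, other normalizations and filters, the replicate block, 2 conditions only, and each library left out. TMM factors ranged from 0.961 to 1.069.

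Labels give replicate numbers 1 and 2 but not whether a number marks a line. Over all tested transcripts, the replicate differences correlated at 0.183 (N and 0h), 0.197 (N and 8h) and 0.222 (0h and 8h), so the blocked values are printed where they change a call. Where lines are the replicates, p-values measure the spread between 2 of them.

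Transcripts were named by a fixed rule, which took the 12 highest by RPKM, the 10 with the widest separation, the largest changes of 8h against N and between replicates (3 in each direction), the 3 on each side of the limit, the 5 longest runs of numbers (all 7 are given, since the pairs tie in length), the 3 lowest and 3 highest in coverage and the 5 with the most counts. The other members called with the block or between replicates were named after their values were seen.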

Additional observations from a re-analysis of the deposited data

How the results depend on the processing

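The number of members, 213, was set by the thresholds: 455 at the lowest ratio tried, 71 at a ratio of 2 and 30 at a ratio of 3, 529 with a minimum of 20 counts and 118 with 100 counts. Leaving out 1 library gave 227 to 495 members, with 495 without replicate 1 and 491 without replicate 2 of 0h, because the highest of the 0h values then came from a single library. With CPM scaled by TMM factors, 184 of the 213 remained and 0 were added.

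For 8h against N, the replicate block gave 11 members higher, 8 lower and 1353 transcripts in all, against 1, 0 and 92 without it. No filter on low counts gave 6, 5 and 621, and DESeq2's Wald test 4, 4 and 358. A minimum of 50 counts gave 2 members higher. Over the fits that each left out 1 library the members called higher were 0 to 1, those called lower 0, and all transcripts 1 to 54. Between replicate numbers, 12 members were called, against 19 without a filter, 23 with a minimum of 50 counts and 7 with DESeq2. The number also changed with 1 library left out. The shares over all transcripts at these other settings are not given here, so these counts show only a dependence on the setting. Among the 71 members at a ratio of 2, 23 had both 8h libraries above both N libraries and 14 below, lower counts because the set was smaller. The causes of the shifts in the numbers called were not tested. Of 77 alternatives to the counts and medians, 44 stayed within 1.5 times the count or the spread between replicates. Of 1294 for the named transcripts 0 turned the direction, which is no sign of robustness. Most were contrasts with 0h, whose direction the rule had fixed, and the others were chosen as the largest changes.

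The biological coefficient of variation was 31.5% with 2 libraries per condition, and the median standard error of a member's log2 fold change of 8h against N was 0.32.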
